A study of Mus musculus with 7 samples.

Results

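The 10 genes Dll1, Dll3, Jag1, Notch1, Notch3, Hes1, Hes5, Hes3, Hey1 and Nrarp encode ligands, receptors, nuclear targets and a feedback regulator of the Notch pathway. They were taken by symbol from the 32285 genes of the deposited single-cell count files and described in 5 classes of cells sorted from the mouse pharyngeal region and its neighbouring neural tube. No member was used to define a class, and all 10 were found once in every file.

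Notch signalling passes between touching cells. A ligand of the Delta or Jagged family on one cell binds a Notch receptor on the next, the receptor is cut, and its freed intracellular part joins the DNA-binding protein Rbpj to switch on target genes of the Hes and Hey families, which encode transcriptional repressors. In the neural tube, cells that begin to form neurons carry much ligand, while their neighbours with active receptors stay progenitors through Hes proteins. In vessels, Jag1, Notch3 and Hey genes are known for their part in forming smooth muscle from mesenchyme, including neural crest mesenchyme around the arch arteries.

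The study asked how loss of Tbx1, a transcription factor of the tissue around the neural crest, alters these cells. Embryos of mixed Swiss-Webster background carried Wnt1-Cre and a Cre-activated ROSA-EGFP reporter, so that EGFP marks neural crest and the dorsal neural tube, and live EGFP+ cells were sorted from pooled embryos and sequenced with the 10x droplet method. The control libraries were Wnt1-Cre/+;ROSA-EGFPf/+ at embryonic day 8.5 (front part of the embryo, 1 library), E9.5 (pharyngeal apparatus with heart, 1 library) and E10.5 (arches 2 to 6 with heart, 2 libraries). The 3 libraries titled Tbx1null (1 at E9.5, 2 at E10.5, the latter from below the first arch with heart) are given the genotype Wnt1-Cre/+;Tbx1+/-;ROSA-EGFPf/+ in the labels, so the label and the title do not match; the study describes all 3 as Tbx1-/-, and they are called here the libraries labelled null. Every library, control or null, carried Wnt1-Cre and the reporter. Library kits differed: version 2 at E8.5, version 3 in the null libraries of E9.5 and of replicate 1 at E10.5, and version 3.1 in the others. At E9.5 kit and genotype therefore cannot be told apart.

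Libraries held 5987 to 12047 barcodes and 140264662 to 234844769 UMIs (unique molecular identifiers, counts of captured transcripts), and 5587 to 9555 cells per library were kept, with a median of 14833.5 to 22865 UMIs per cell. Each library shared 6 to 173 barcodes with any other. Classes were set by UMI counts of marker genes, the first match deciding: Sox10 cells (Sox10 at least 2), neuronal cells (Tubb3 plus Stmn2 at least 3), Acta2/Tagln cells (sum at least 10), neural progenitors (Sox2 at least 1 and Twist1 at 0) and other mesenchymal cells (Twist1 at least 1). The stricter gates, an alternative used below, asked for at least 3 Sox10, 10 Tubb3 plus Stmn2 or 20 Acta2 plus Tagln UMIs. Progenitors then needed Sox2 at least 2 and Twist1 at 0, and other mesenchymal cells Twist1 at least 2 and Sox2 at 0. Cells with 3 to 9 Tubb3 plus Stmn2 UMIs could thus enter these classes. In the library labelled null replicate 2 of E10.5, progenitors went from 475 to 1756 cells and other mesenchymal cells from 663 to 841. Under the main gates the composition differed widely between libraries. At E10.5 the neuronal class held 32.2% and 14.8% of the cells in the controls and 32.3% and 70.4% in the libraries labelled null, and other mesenchymal cells held 40.4%, 66.0%, 30.1% and 10.3%. At E10.5 the summed level of 9 neural progenitor markers was 1774 to 2131 CPM (counts per 1000000 UMIs of the class in that library) in the progenitor class and 92.2 to 375 in other mesenchymal cells, and the 8 neuron markers reached 2093 to 3869 CPM in the neuronal class. The Acta2/Tagln class was small, with 18 to 140 cells at E9.5 and E10.5 and 5 at E8.5, which are not plotted; besides smooth muscle markers it held 25.4 to 1729 CPM of 5 heart muscle markers at E10.5 and 1888 and 2749 CPM at E9.5. The library labelled null E10.5 replicate 2 stood apart, with 7.76 to 11.7 CPM of 6 blood markers in all 5 classes against at most 2.07 CPM in these classes of the other E10.5 libraries.

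Tbx1 itself did not separate the labels in every class. In neural progenitors it measured 0.367 to 2.18 CPM in the 4 controls and 0.0476, 0.0370 and 0.00 CPM in the 3 libraries labelled null, without overlap. In other mesenchymal cells at E10.5 it measured 7.37 and 4.49 CPM in the controls and 6.61 and 10.9 CPM in the libraries labelled null, which overlapped. Where the counted transcript end lies relative to the altered allele is not given in the sources used here, so these counts do not check the labels.

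The promoter of Hes5 is shown because Hes5 had the largest log2 fold change of the targets between neural progenitors and other mesenchymal cells and because the letters bound by the Rbpj (CBF1) complex can be searched in it. Of the 10 genes, 7 had a promoter in the RefSeq table used (GRCm38.p6, a window from 250 bases before to 50 bases after the start). The letters TGGGAA, read on both strands, stand in capitals in the 250 bases upstream of Hes5, at chr4:154960673-154960922 on the plus strand, 5′ to 3′.
Hes5: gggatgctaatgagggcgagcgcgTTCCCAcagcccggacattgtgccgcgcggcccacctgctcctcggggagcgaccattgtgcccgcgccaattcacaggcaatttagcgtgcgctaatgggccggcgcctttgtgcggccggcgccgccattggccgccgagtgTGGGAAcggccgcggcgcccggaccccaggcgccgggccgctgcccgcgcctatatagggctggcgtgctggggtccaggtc
This window held TGGGAA at 2 places, whose leftmost bases are at -226 and -82 relative to the start, and both are part of the longer GTGGGAA. Of the 32851 promoter windows in the table, 25.6% held TGGGAA at least once and 3.79% at 2 or more places, while GTGGGAA occurred in 6.38% and at 2 or more places in 0.256%. The windows of Dll1, Dll3, Jag1, Notch1, Notch3 and Nrarp held no TGGGAA. The N box CACNAG, known as a binding sequence of Hes proteins, occurred in 42.5% of all windows and in those of Notch1, Notch3 and Nrarp. Of the windows of Dll1, that at 15376883 to 15377182 held it, at 14 relative to the start, and that at 15375774 to 15376073 did not. These are matches of letters and were not tested for binding.

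**Figure D1:**
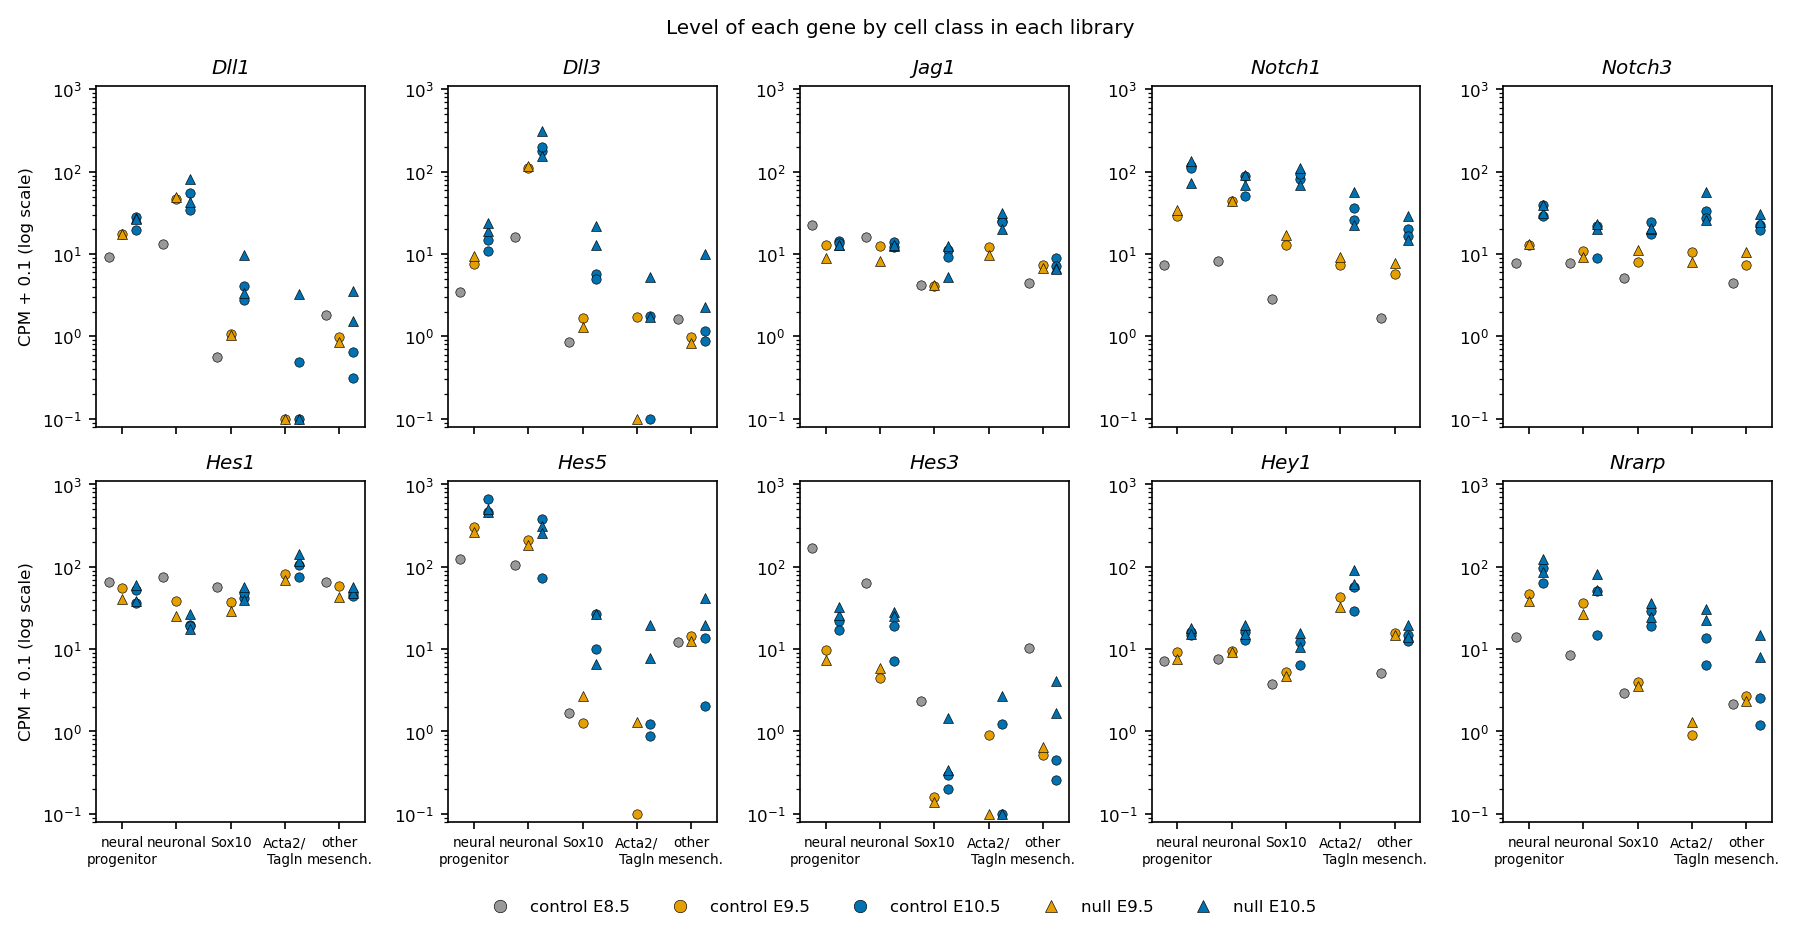
Level of each of the 10 genes in CPM (plus 0.1, log scale, vertical axis) in the 5 cell classes (horizontal axis), 1 point per library, with circles for control libraries, triangles for libraries labelled null and colour for the stage; the 5 Acta2/Tagln cells of E8.5 are left out. Dll1, Dll3, Hes5, Hes3 and Nrarp sit high in neural progenitors and neuronal cells and low in mesenchyme, whereas Hey1 and Hes1 at E9.5 and E10.5, and Jag1 at E10.5, sit highest in Acta2/Tagln cells. Under the stricter gates, not plotted, the neuronal levels of Hes5, Hes3 and Nrarp at E10.5 were lower. Hes5 was then at 11.5 to 151 CPM, Hes3 at 0.849 to 18.2 CPM and Nrarp at 8.70 to 40.8 CPM. Neuronal Dll3 was higher under these gates, at 292 to 665 CPM, and Dll1 was at 30.8 to 113 CPM.

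The first comparison asked in which classes of E10.5 cells each gene was expressed, with the 4 E10.5 libraries as replicates and the library as a block. The ligand Dll1 and the targets Hes5, Hes3 and Nrarp were called higher in neural progenitor and in neuronal cells than in other mesenchymal cells. The ligand Dll3 was called higher in both as well, but its difference in progenitors was not called with the neuronal gate at Twist1 0 (0.69, edgeR adjusted p = 0.34). Dll3 was higher in neuronal cells than in progenitors, and Hes5 higher in progenitors, in 4 of 4 libraries. Notch1 was also high in Sox10 cells, and Hey1, Jag1 and Hes1 were highest in Acta2/Tagln cells. Against other mesenchymal cells, 8 of the 10 genes were called higher in neural progenitors (edgeR quasi-likelihood test, Benjamini-Hochberg adjusted p under 0.05 over all genes tested), where 23.6% of 14657 genes were called higher and 25.8% lower. In neuronal cells 7 were higher and 2 lower (26% and 32.7% of genes), in Sox10 cells 4 were higher and 1 lower (22.9% and 21.3%), and in Acta2/Tagln cells 4 were higher and 0 lower (15.8% and 19.5%). The median log2 fold change of the 10 genes was 2.61 in progenitors and 2.53 in neuronal cells, against -0.01 and -0.06 over all genes, and was 0.20 and 0.50 in Sox10 and Acta2/Tagln cells, against 0.00 and -0.08.

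Dll1 (chromosome 17, 15367354 to 15376872, minus strand, GRCm38) encodes the Delta ligand that activates Notch on neighbouring cells. In neuronal cells it measured 54.5 and 34.5 CPM in the controls and 80.4 and 42.3 CPM in the libraries labelled null at E10.5, in neural progenitors 19.7, 28.4, 27.4 and 26.7 CPM in the same order, and in other mesenchymal cells 0.546, 0.214, 1.44 and 3.46 CPM. The neuronal, progenitor and mesenchymal ranges did not overlap. The log2 fold change against other mesenchymal cells was 5.71 ± 0.47 (SE) in neuronal cells and 4.69 ± 0.47 in progenitors (edgeR adjusted p = 3.07e-08 and 3.47e-07). Between neuronal cells and progenitors the log2 difference was 1.03 ± 0.37 (edgeR adjusted p = 0.030), a call that was lost with DESeq2 (1.03, adjusted p = 0.16), with stricter gates (0.66, adjusted p = 0.088), without control replicate 1 (0.90, adjusted p = 0.18) and without null replicate 1 (0.82, adjusted p = 0.16).

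Dll3 (chromosome 7, 28293553 to 28302238, minus strand) encodes a Delta-like protein that acts inside the ligand cell and does not activate receptors on neighbours. Its level in neuronal cells at E10.5 was 181 and 202 CPM in the controls and 316 and 154 CPM in the libraries labelled null. In neural progenitors it was 10.8, 14.6, 19.0 and 23.9 CPM, and in other mesenchymal cells 1.06, 0.776, 2.15 and 9.93 CPM. All neuronal values stood above all progenitor values, while the library labelled null replicate 2 was the highest in the mesenchyme. Neuronal cells had a log2 fold change of 6.61 ± 0.47 against other mesenchymal cells and 3.80 ± 0.41 against progenitors (edgeR adjusted p = 6.53e-09 and 2.26e-06). For progenitors against other mesenchymal cells it was 2.82 ± 0.45 (edgeR adjusted p = 5.69e-05), a call lost when the neuronal gate also required Twist1 at 0, which moved neuronal cells with Twist1 counts into the mesenchyme (0.69, adjusted p = 0.34).

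Jag1 (chromosome 2, 137081456 to 137116644, minus strand) encodes the Jagged ligand of the arterial wall and of sensory organs. In Acta2/Tagln cells at E10.5 it measured 25.3 and 24.2 CPM in the controls and 20.1 and 31.0 CPM in the libraries labelled null, above its range in every other class. In neural progenitors the values were 14.1, 13.7, 12.9 and 12.6 CPM, and in other mesenchymal cells 8.87, 7.09, 6.68 and 6.55 CPM. The 4 libraries lay close together within each of these classes. Against other mesenchymal cells the log2 fold change was 1.60 ± 0.20 in Acta2/Tagln cells, 0.81 ± 0.16 in progenitors and 0.72 ± 0.15 in neuronal cells (edgeR adjusted p = 1.20e-05, 0.00040 and 0.00058).

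Of the receptors, Notch1 (chromosome 2, 26457903 to 26516663, minus strand) was high in both neural classes and in Sox10 cells. At E10.5 it measured 117, 109, 73.9 and 135 CPM in neural progenitors (control replicates 1 and 2, then null replicates 1 and 2), 82.7, 92.5, 69.5 and 112 CPM in Sox10 cells, and 20.3, 16.4, 14.7 and 29.2 CPM in other mesenchymal cells. The progenitor and Sox10 ranges overlapped each other, and both stood above the mesenchymal range. The log2 fold change against other mesenchymal cells was 2.40 ± 0.14 in progenitors, 2.21 ± 0.14 in Sox10 cells and 1.87 ± 0.14 in neuronal cells (edgeR adjusted p = 2.66e-09, 2.74e-09 and 1.36e-08). In Acta2/Tagln cells it was 0.65 ± 0.20 (adjusted p = 0.016), a call lost without control replicate 2 (0.44, adjusted p = 0.12) without null replicate 2 (0.65, adjusted p = 0.052) and with all 7 libraries (0.50, adjusted p = 0.14).

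Notch3 (chromosome 17, 32120820 to 32166852, minus strand), the receptor known from vascular smooth muscle and pericytes, differed least between classes under the main gates. At E10.5 it measured 39.7, 28.7, 31.1 and 39.2 CPM in neural progenitors, 33.7, 27.3, 25.8 and 56.9 CPM in Acta2/Tagln cells and 22.4, 19.6, 24.4 and 30.3 CPM in other mesenchymal cells. These ranges overlapped. The log2 fold change against other mesenchymal cells was 0.46 ± 0.15 in progenitors (edgeR adjusted p = 0.018; 0.34 and 0.20 without control replicate 1) and -0.49 ± 0.15 in neuronal cells (adjusted p = 0.0094; -0.26 and 0.091 without control replicate 2, -0.18 and 0.32 with all 7 libraries). In Acta2/Tagln cells it was 0.34 ± 0.20, which was not called (adjusted p = 0.19). Under the stricter gates Notch3 was lower in neuronal cells, at 5.81, 2.76, 7.24 and 11.3 CPM. It was then 38.6, 29.6, 30.6 and 36.8 CPM in progenitors and 21.9, 19.5, 24.2 and 28.8 CPM in other mesenchymal cells.

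Among the targets, Hes5 (chromosome 4, 154960923 to 154962371, plus strand) encodes the repressor that keeps neural progenitors from differentiating. At E10.5 its level in neural progenitors was 660 and 458 CPM in the controls and 463 and 504 CPM in the libraries labelled null, against 13.4, 1.94, 19.3 and 41.1 CPM in other mesenchymal cells. Its log2 fold change was 5.25 ± 0.56 (edgeR adjusted p = 7.05e-07), and no progenitor value came near a mesenchymal one. With each cell thinned to 5000 UMIs, 61.8% to 78.7% of E10.5 progenitors and 0.626% to 10.7% of other mesenchymal cells held a Hes5 UMI (70.3% to 88.0% in progenitors without thinning). In neuronal cells Hes5 measured 383, 73.4, 312 and 256 CPM, with control replicate 2 far below the others. Under the stricter gates, with at least 10 Tubb3 plus Stmn2 UMIs for this class, it was 134, 11.5, 119 and 151 CPM in the same order. The log2 difference of neuronal cells from progenitors was -1.31 ± 0.47 (adjusted p = 0.030), which was not called without control replicate 1 (-1.47, adjusted p = 0.085) or control replicate 2 (-0.74, adjusted p = 0.16), with DESeq2 (-1.37, adjusted p = 0.11), with the neuronal gate at Twist1 0 (-1.07, adjusted p = 0.13) or with all 7 libraries (-0.88, adjusted p = 0.098).

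Nrarp (chromosome 2, 25180758 to 25183339, plus strand), a target whose product damps Notch signalling, and Hes3 (chromosome 4, 152285972 to 152291662, minus strand), a further Hes repressor of the early neural tube, shared the neural pattern. Nrarp measured 95.4, 63.4, 125 and 85.3 CPM in E10.5 progenitors and 2.45, 1.09, 7.83 and 14.6 CPM in other mesenchymal cells, with a log2 fold change of 4.26 ± 0.40 (edgeR adjusted p = 2.00e-07). It was also higher in Sox10 cells, at 29.2, 18.9, 24.6 and 36.1 CPM (log2 fold change 2.52 ± 0.40, adjusted p = 6.13e-05). Both classes stood above the mesenchymal range. Hes3 measured 22.1, 16.8, 26.1 and 32.7 CPM in progenitors and 0.348, 0.155, 1.57 and 3.97 CPM in other mesenchymal cells (4.63 ± 0.43, adjusted p = 1.60e-07). Its level in Sox10 cells was at most 1.34 CPM, from 1 to 29 UMIs per library.

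Hes1 (chromosome 16, 30064384 to 30067796, plus strand) encodes a Hes repressor used in many tissues, and its pattern differed from that of Hes5. At E10.5 it measured 74.7, 105, 118 and 145 CPM in Acta2/Tagln cells, 44.6, 47.5, 48.4 and 57.2 CPM in other mesenchymal cells and 19.3, 19.2, 17.7 and 26.5 CPM in neuronal cells. The 3 ranges did not overlap. Under the stricter gates the neuronal values were lower still, at 4.32, 1.91, 4.97 and 7.08 CPM. The log2 fold change against other mesenchymal cells was 0.99 ± 0.10 in Acta2/Tagln cells and -1.34 ± 0.09 in neuronal cells (edgeR adjusted p = 1.97e-06 and 5.18e-09), and in progenitors it was -0.18 ± 0.09, which was not called (adjusted p = 0.13).

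Hey1 (chromosome 3, 8663359 to 8667256, minus strand), a target known from the heart and arteries, measured 56.8, 28.9, 61.2 and 90.5 CPM in Acta2/Tagln cells at E10.5 and 14.7, 12.3, 19.3 and 14.1 CPM in other mesenchymal cells. All Acta2/Tagln values stood above the mesenchymal ones. Its log2 fold change was 1.68 ± 0.20 (edgeR adjusted p = 7.82e-06). In progenitors and neuronal cells it was 0.01 ± 0.17 and -0.02 ± 0.17. In Sox10 cells Hey1 was lower by 0.46 on the log2 scale (adjusted p = 0.049), and this call was lost without control replicate 1 (adjusted p = 0.13), control replicate 2 (0.17) or null replicate 1 (0.33), and with size factors (0.056), Sox10 at 1 UMI (0.12) or gates on thinned cells (0.065). Heart muscle markers moved with the Acta2/Tagln class in part: their sum was 1729, 25.4, 101 and 432 CPM in these cells and 1.69 to 5.89 CPM in other mesenchymal cells. Hey1 in Acta2/Tagln cells was 56.8, 28.9, 61.2 and 90.5 CPM in the same order of libraries. It was lowest where that sum was lowest, in control replicate 2, but not highest where the sum was highest, in control replicate 1. The part of heart cells in the result was not tested.

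Dll1 and Dll3 were called higher in Sox10 cells than in other mesenchymal cells (log2 fold changes 2.30 ± 0.51 and 2.24 ± 0.45, edgeR adjusted p = 0.0015 and 0.00069). Their levels in Sox10 cells were 2.69, 3.97, 3.23 and 9.53 CPM for Dll1 and 5.57, 4.86, 12.7 and 21.6 CPM for Dll3. The library labelled null replicate 2 was the highest for both, and neuron markers summed to 659 CPM in its Sox10 cells against 220 to 300 CPM in the other E10.5 libraries. When the neuronal gate also required Twist1 at 0, the mesenchymal levels of Dll3 rose to 3.33, 1.49, 14.0 and 46.5 CPM and neither call held (0.85 with adjusted p = 0.28 for Dll1, -0.049 with adjusted p = 0.96 for Dll3).

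**Figure D2:**
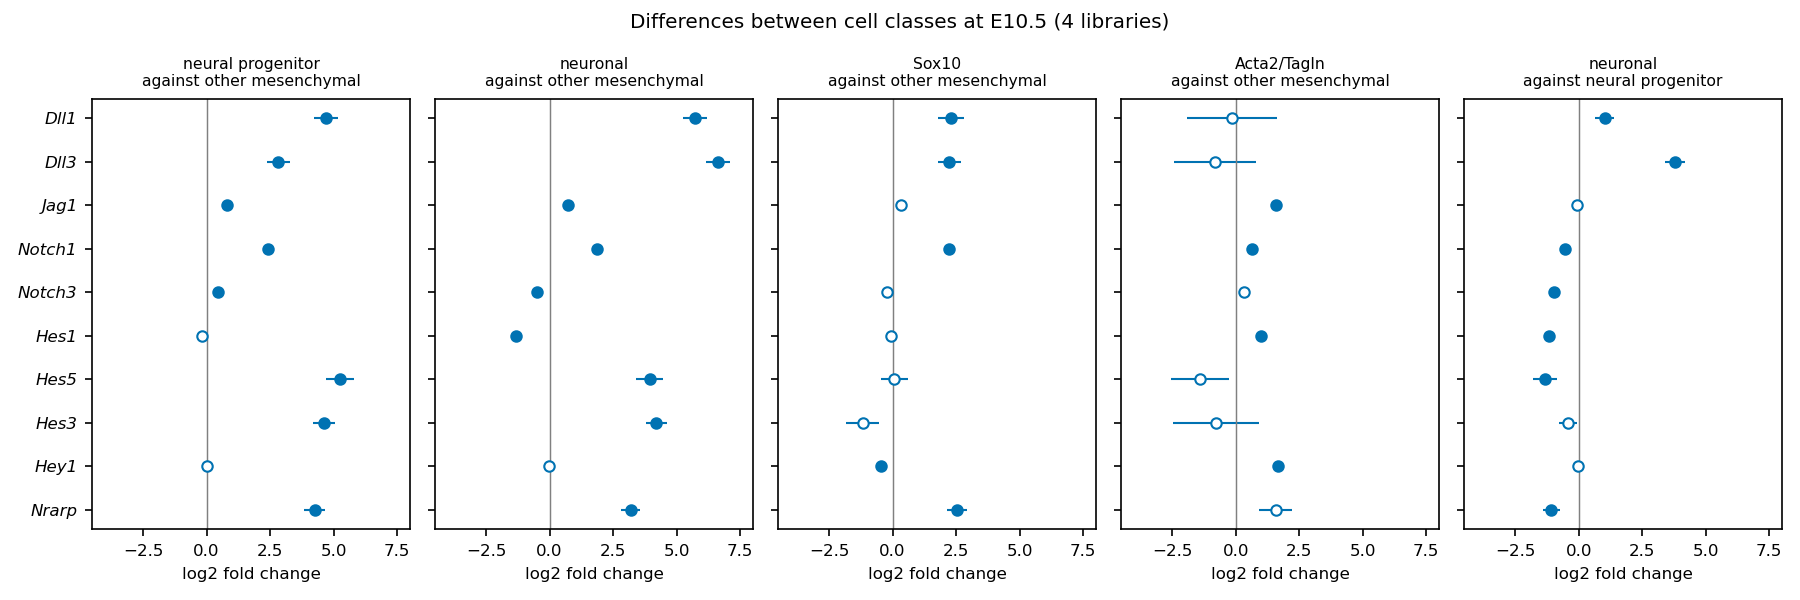
Log2 fold change of each gene between classes at E10.5 (horizontal axis) from the fit over 4 libraries; points are estimates, bars are the standard error, and filled points have an adjusted p under 0.05. Hes5 (5.25) and Dll1 (4.69) lead in progenitors, Dll3 (6.61) in neuronal cells, and Hey1 (1.68) and Jag1 (1.60) in Acta2/Tagln cells.

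The pathway holds further genes, of which a list of 40 was read alongside. In neural progenitors against other mesenchymal cells 17 of the 38 tested were higher and 5 lower, against 23.6% and 25.8% of all genes. Their median log2 fold change was 0.27, against -0.01 over all genes. The highest were the glycosyltransferases Mfng (4.80 ± 0.47) and Lfng (4.72 ± 0.48), which modify Notch receptors, and Dtx4 (3.70 ± 0.31), a member of the Deltex family (edgeR adjusted p = 2.60e-07, 4.58e-07 and 5.57e-08). Dner, Heyl, Jag2, Notch4, Hes6 and Hey2 were higher by 1.29 to 2.19, while Dlk1, a non-canonical ligand, was lower at -4.77 ± 0.46. In neuronal cells 20 were higher and 6 lower (26% and 32.7% of all genes, median 0.33 against -0.06). The highest were Dner (5.93 ± 0.53), Mfng (5.92 ± 0.47), Dll4 (4.65 ± 0.66, from 1 to 5 UMIs per library in other mesenchymal cells), Dlk2 (4.45 ± 0.56) and Lfng (3.29 ± 0.46). Hes6 (3.13 ± 0.18), Jag2 (2.76 ± 0.35), Dtx4 (2.50 ± 0.30), Numbl (2.48 ± 0.15) and Heyl (2.04 ± 0.29) followed.

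In Sox10 cells 12 of the 38 were higher and 3 lower (22.9% and 21.3% of all genes, median 0.15 against 0.00). Heyl, another Hey family repressor, led with a log2 fold change of 5.98 ± 0.30 and a median of 91.8 CPM against 1.16 CPM in other mesenchymal cells (edgeR adjusted p = 2.31e-10), followed by Hey2 (3.09 ± 0.45), Mfng (2.79 ± 0.49), Dtx4 (2.06 ± 0.31), Dner (1.92 ± 0.68), Jag2 (1.72 ± 0.39), Psen2 (1.48 ± 0.24) and Maml2 (1.02 ± 0.15). Dlk1 (-4.27 ± 0.44) and Dtx1 (-2.59 ± 0.49) were lower. In Acta2/Tagln cells 10 were higher and 3 lower (15.8% and 19.5% of all genes, median 0.03 against -0.08). Those at or past 1 on the log2 scale were Hey2 (3.52 ± 0.54), Heyl (2.49 ± 0.54), Numbl (1.48 ± 0.21), Neurl1a (1.00 ± 0.21) and Dlk2, whose 5 UMIs in these cells all came from null replicate 1. Hey1, Hey2 and Heyl were thus all called higher in Acta2/Tagln cells, in which the heart muscle markers also summed to 25.4 to 1729 CPM against 1.69 to 5.89 CPM in other mesenchymal cells; their part was not tested. Among the 10 members, 2 were called higher and 5 lower in neuronal cells than in progenitors (22.8% and 24% of genes). Without control replicate 1, 4 in all were called, in a fit that also called a smaller share of all genes (range given at the end). Of the 5 lower calls, those of Notch1, Hes5 and Nrarp were lost with the neuronal gate at Twist1 0 and with all 7 libraries. Of the list, 11 were higher and 7 lower (22.8% and 24% of all genes, median 0.04 against -0.03). Dner (3.74 ± 0.49), Dlk2 (3.63 ± 0.68), Dlk1 (2.86 ± 0.45), Numbl (2.05 ± 0.15), Hes6 (1.62 ± 0.17), Maml3 (1.52 ± 0.15) and Mfng (1.12 ± 0.36) were higher. Lfng (-1.42 ± 0.41) and Dtx4 (-1.19 ± 0.28) were lower. Dll4, a Delta ligand best known from arteries, was called higher as well, at 1.11, 1.52, 5.00 and 1.03 CPM in neuronal cells and 0 UMIs in the progenitors of all 4 libraries.

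The order of the pathway along neuron formation was described in progenitor and neuronal cells with no Twist1 UMI, thinned to 5000 UMIs and binned by the sum of Tubb3 and Stmn2, transcripts of the neuronal cytoskeleton. The median levels of the ligands Dll1 and Dll3 passed through a maximum, first Dll1 and then Dll3. The bins share libraries and no test was made. Over the bins of 0, 1 to 2, 3 to 9, 10 to 29 and at least 30 UMIs, the median Dll1 level of the 4 E10.5 libraries was 26.2, 56.4, 163, 96.3 and 15.4 CPM. That of Dll3 was 16.8, 37.4, 274, 572 and 335 CPM, so its highest bin came 1 later than that of Dll1. In the bin of 3 to 9 UMIs the libraries ranged from 138 to 232 CPM for Dll1, and in the bin of 10 to 29 UMIs from 412 to 985 CPM for Dll3. Each range overlapped that of the next bin, which was 35.8 to 209 CPM for Dll1 and 311 to 757 CPM for Dll3.

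Hes1 fell from the first bin on, with medians of 43.3, 29.2, 15.1, 0.563 and 0.767 CPM. The median of Hes5 was 511, 525, 432, 48.1 and 6.44 CPM. In the third bin its libraries ranged from 188 to 519 CPM, the lowest of them below the first-bin range of 411 to 663 CPM. Nrarp had medians of 91.1, 99.3, 75.4, 18.5 and 7.24 CPM. Among the receptors, Notch1 stayed at 122, 138 and 137 CPM before it fell to 70.9 and 13.3 CPM, whereas Notch3 was already lower in the third bin, at 33.7, 35.9, 20.8, 4.40 and 0.509 CPM. In the third bin Dll1 was at its highest median and Dll3 was still below its own, while Notch1 and Hes5 transcripts were present. Jag1 was highest there too, at 31.3 CPM against 13.2 and 14.2 CPM before it, and the median of Hey1 was at no less than 9.05 CPM in any of the 5 bins (lowest library 5.86 CPM). Neurog2, a proneural factor that activates Delta genes, had medians of 11.6, 24.4, 156, 370 and 193 CPM.

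**Figure D3:**
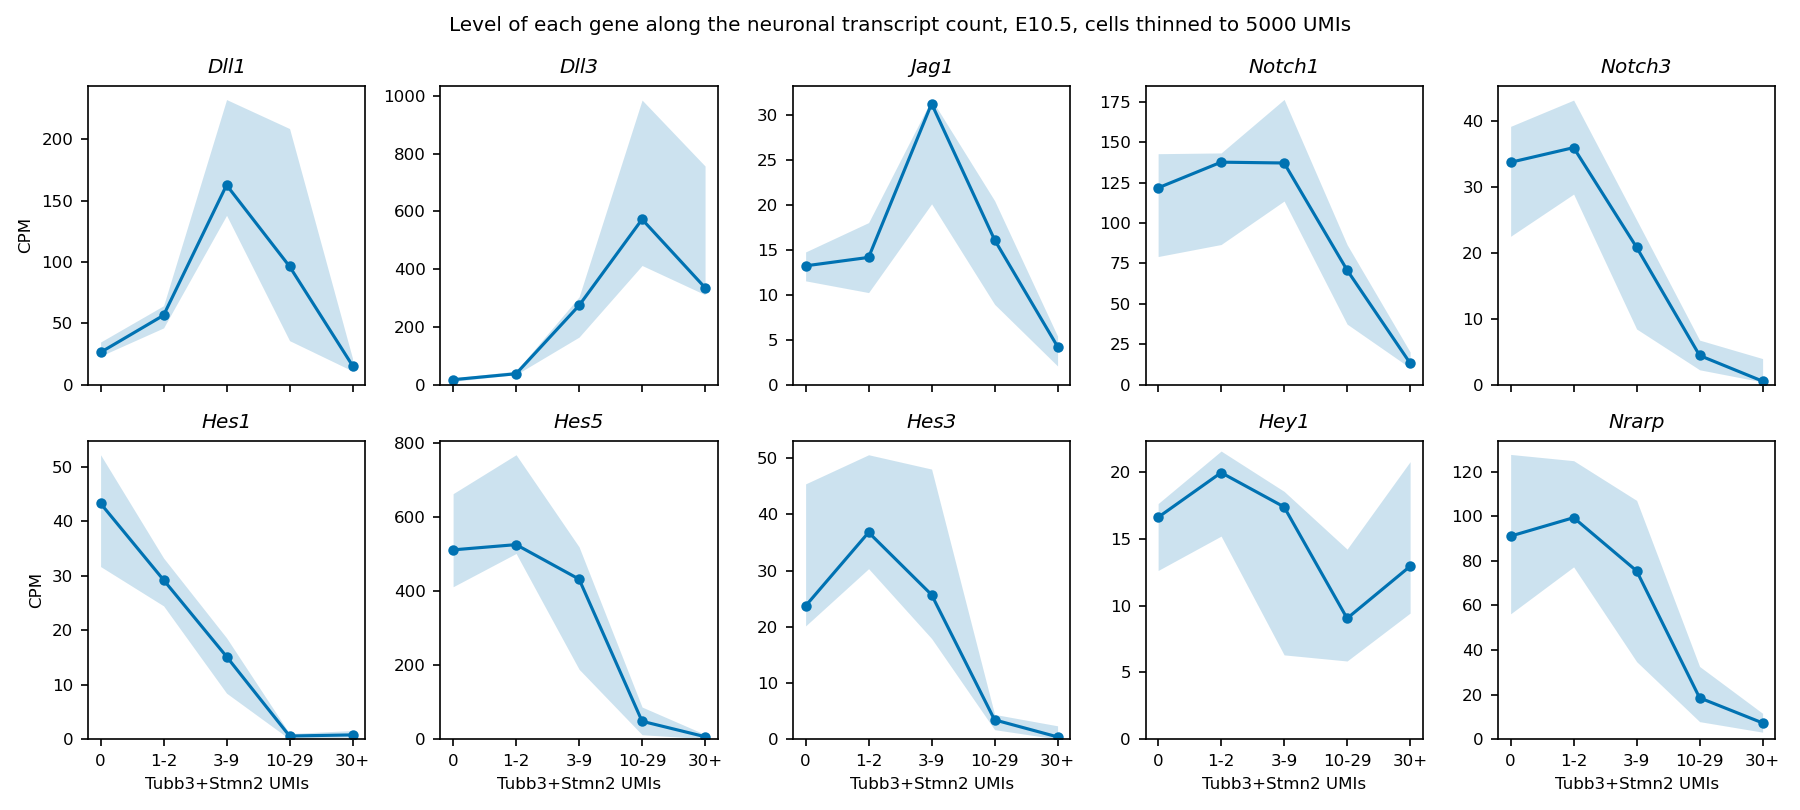
CPM of each gene (vertical axis, linear, a scale per gene) in E10.5 progenitor and neuronal cells by their Tubb3+Stmn2 UMIs (horizontal axis, 5 bins, cells thinned to 5000 UMIs); points are the median and the band the range of the 4 libraries. Dll1 is highest in the bin of 3 to 9 UMIs (163 CPM) and Dll3 in that of 10 to 29 UMIs (572 CPM), where Hes5 has fallen to 48.1 CPM.

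Whether transcripts of pathway genes met in the same progenitor cell was asked for 8 pairs, with 1 odds ratio per library over cells thinned to 5000 UMIs and an exact two-sided sign-flip permutation test over the 7 libraries, whose smallest possible p is 0.016. Dll1 and Dll3 were found together most, with a mean log2 odds ratio of 2.44 ± 0.80 (SD, n = 7, range 0.97 to 3.27, exact p = 0.016, adjusted p = 0.021 over 8 pairs). Hes5 and Nrarp followed with 1.16 ± 0.47 (0.55 to 2.03), Dll1 and Notch1 with 0.86 ± 0.40, Dll1 and Hes5 with 0.69 ± 0.19 and Hes5 and Notch1 with 0.66 ± 0.31, each above 0 in 7 of 7 libraries and with the same exact p. Hes1 and Hes5 were found together less than independence would give in 7 of 7 libraries, at -0.65 ± 0.41 (-1.16 to -0.13, the same exact p). That call was lost with cells thinned to 3000 UMIs (-0.48, 6 of 7 libraries, adjusted p = 0.062 over the exact tests) and with stricter gates (-0.38, 6 of 7, adjusted p = 0.075 over the exact tests). The pair Hes5 and Notch1 was lost in both as well (0.48 and 0.41, exact tests, adjusted p = 0.050 and 0.062), and Dll1 and Hes5 with stricter gates (0.28, exact test, adjusted p = 0.083). Dll1 and Nrarp (0.07 ± 0.31, exact p = 0.59) and Jag1 and Hes5 (0.29 ± 0.68, exact p = 0.31) had ratios on both sides of 0.

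The comparison of stages set the 2 libraries of E9.5 against the 4 of E10.5 in each class, with genotype as a term. The dissection also differed, since the first arch was included at E9.5. The E8.5 library entered no test of stage, and its levels are given below as a description. Its kit and dissection were others again, so stage, kit and dissection cannot be told apart in it. Both receptors rose in 4 of the 5 classes, and in Sox10 cells 6 of the 9 genes tested rose. In neural progenitors 3 of 10 genes rose and 0 fell (4.62% and 3.11% of 13729 genes). In neuronal cells 1 rose and 1 fell (8% and 4.45% of genes), and in Sox10 cells 6 of 9 rose and 0 fell (13.1% and 11.6%). Of the 7 genes tested in Acta2/Tagln cells 4 rose and 0 fell (5.48% and 5.43%), and in other mesenchymal cells 2 of 10 rose and 0 fell (13.4% and 13.4%). The median log2 fold change of the genes tested was 0.61, 0.33, 1.88, 1.56 and -0.15 in this order, against 0.06 to 0.08 over all genes. Without the control or without the null library of E9.5, 3 members were called in Sox10 cells (4.10% and 7.77% of all genes) and none in the other 4 classes (at most 2.90% and 7.24%); without null replicate 1 of E10.5, 4 were called in other mesenchymal cells (37.6%). In neuronal cells none was called without control replicate 1 of E10.5 (8.42%) and 1 without null replicate 2 (6.63%), and in Acta2/Tagln cells 1 without control replicate 2 (4.21%).

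Notch1 in neural progenitors measured 7.35 CPM at E8.5, 29.2 (control) and 34.3 CPM (null) at E9.5 and 73.9 to 135 CPM at E10.5. In Sox10 cells it measured 2.77, then 12.7 and 17.1, then 69.5 to 112 CPM, and in other mesenchymal cells 1.59, then 5.60 and 7.76, then 14.7 to 29.2 CPM. In each of these classes the stages did not overlap. From E9.5 to E10.5 the log2 fold change was 1.43 ± 0.25 in progenitors, 2.20 ± 0.24 in Sox10 cells, 1.70 ± 0.42 in Acta2/Tagln cells and 1.08 ± 0.26 in other mesenchymal cells (edgeR adjusted p = 0.0087, 0.00024, 0.025 and 0.018). Within the controls, all 3 made with kit version 3.1, it was 1.70, 2.41, 1.80 and 1.26. With 1 library at E9.5, the calls were lost in progenitors (1.17 with adjusted p = 0.21 without the control library of E9.5, 1.66 with 0.053 without the null library), in Acta2/Tagln cells (1.58 with 0.27, 1.81 with 0.17; also 1.59 with 0.073 without control replicate 2 of E10.5) and in other mesenchymal cells (0.91 with 0.18, 1.24 with 0.084). The call in Sox10 cells held without any 1 library. Heart muscle markers moved with the stage in Acta2/Tagln cells, with sums of 1888 and 2749 CPM at E9.5 and 1729, 25.4, 101 and 432 CPM at E10.5, and their part in the rises of Notch1 and Notch3 there was not tested.

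Notch3 in neural progenitors measured 7.79 CPM at E8.5, 12.8 and 13.1 CPM at E9.5 and 28.7 to 39.7 CPM at E10.5, and in other mesenchymal cells 4.41, then 7.32 and 10.6, then 19.6 to 30.3 CPM. The stages again did not overlap. The log2 fold change from E9.5 to E10.5 was 1.09 ± 0.20 in progenitors, 0.94 ± 0.18 in other mesenchymal cells, 1.56 ± 0.39 in Acta2/Tagln cells and 0.74 ± 0.22 in Sox10 cells (edgeR adjusted p = 0.012, 0.0079, 0.027 and 0.031). Without the control or the null library of E9.5 the adjusted p was 0.22 and 0.12 in progenitors, 0.12 and 0.054 in other mesenchymal cells, 0.19 and 0.26 in Acta2/Tagln cells and 0.37 and 0.081 in Sox10 cells. Without control replicate 1 of E10.5 the call in Sox10 cells was lost as well (0.11), and without control replicate 2 that in Acta2/Tagln cells (0.053). Gates on thinned cells lost it in Sox10 (0.061) and Acta2/Tagln cells (0.24), and in the latter so did stricter gates (0.081) and the controls alone (0.060).

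In Sox10 cells Nrarp rose from 3.87 and 3.49 CPM at E9.5 to 29.2, 18.9, 24.6 and 36.1 CPM at E10.5 (log2 fold change 2.47 ± 0.28, edgeR adjusted p = 0.00030). Hes5 went from 1.16 and 2.62 to 26.7, 9.82, 6.49 and 26.4 CPM (2.82 ± 0.62, adjusted p = 0.0096) and Dll3 from 1.58 and 1.20 to 5.57, 4.86, 12.7 and 21.6 CPM (2.33 ± 0.46, adjusted p = 0.0061), and Dll1 rose by 1.88 ± 0.48 (adjusted p = 0.018). The stages overlapped for none of Nrarp, Hes5 and Dll3. Neural markers moved with them: in Sox10 cells the sum of the progenitor markers was 214 and 217 CPM at E9.5 and 438 to 814 CPM at E10.5, and that of the neuron markers 49.5 and 55.2 against 220 to 659 CPM. Their part in the rises was not tested. The call for Nrarp held without any 1 library, that for Hes5 was lost without the control library of E9.5 (2.23, adjusted p = 0.14) and with gates on thinned cells (1.29, adjusted p = 0.12), and that for Dll3 without the null library of E9.5 (1.30, adjusted p = 0.082) and with the other cell filter of 200 genes and 5% mitochondrial UMIs (1.93, adjusted p = 0.078). That for Dll1 was lost without either library of E9.5 (2.35 with 0.076 and 1.39 with 0.21), with the other cell filter (1.78, adjusted p = 0.053) and with gates on thinned cells (1.44, adjusted p = 0.18). Of the 35 other pathway genes tested in Sox10 cells 9 rose and 1 fell (13.1% and 11.6% of all genes), with Heyl (2.57 ± 0.20) and Mfng (2.88 ± 0.44) among those that rose.

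Hes3 had its highest level in the E8.5 library, which had another kit and dissection. In neural progenitors it measured 169.5 CPM at E8.5, 9.70 and 7.23 CPM at E9.5 and 22.1, 16.8, 26.1 and 32.7 CPM at E10.5. The E8.5 library stood far above both later stages, and E9.5 was the lowest. The step from E9.5 to E10.5 was called in progenitors (1.16 ± 0.24, edgeR adjusted p = 0.018) and in neuronal cells (1.58 ± 0.41, adjusted p = 0.042), and both calls were lost without the control library of E9.5 (adjusted p = 0.075 and 0.28) or the null one (0.32 and 0.30), and in neuronal cells also without control replicate 1 (0.070) or null replicate 2 of E10.5 (0.089), with stricter gates (0.19) or with Sox10 at 1 UMI (0.054). Within the controls the step was 0.76 and 1.28 (adjusted p = 0.16 and 0.26).

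Hes1 went the other way in neuronal cells, at 75.5 CPM at E8.5, 38.5 (control) and 25 CPM (null) at E9.5 and 17.7 to 26.5 CPM at E10.5, so that the null library of E9.5 lay within the range of E10.5. It fell by 0.94 ± 0.23 on the log2 scale from E9.5 to E10.5 (edgeR adjusted p = 0.036), a call lost without the control (-0.54, adjusted p = 0.46) or the null library of E9.5 (-1.29, adjusted p = 0.094) and without control replicate 1 (-0.89, adjusted p = 0.080) or 2 of E10.5 (-0.89, adjusted p = 0.059). In Acta2/Tagln cells Nrarp and Hes5 were also called higher at E10.5 (adjusted p = 0.0070 and 0.036), but at E9.5 they rested on at most 2 UMIs per library, and neither call held without either library of E9.5 (adjusted p = 0.12 and 0.17 for Nrarp, 0.22 and 0.59 for Hes5). Without control replicate 2 of E10.5 Nrarp was still called, and Hes5 did not pass the count filter. Within the controls that of Nrarp was lost (0.065). Under stricter gates the Hes5 difference was -0.38, and its call was lost as well with DESeq2 (0.13), doublets kept (0.11), gates on thinned cells (0.13) and the neuronal gate at Twist1 0 (0.94).

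**Figure D4:**
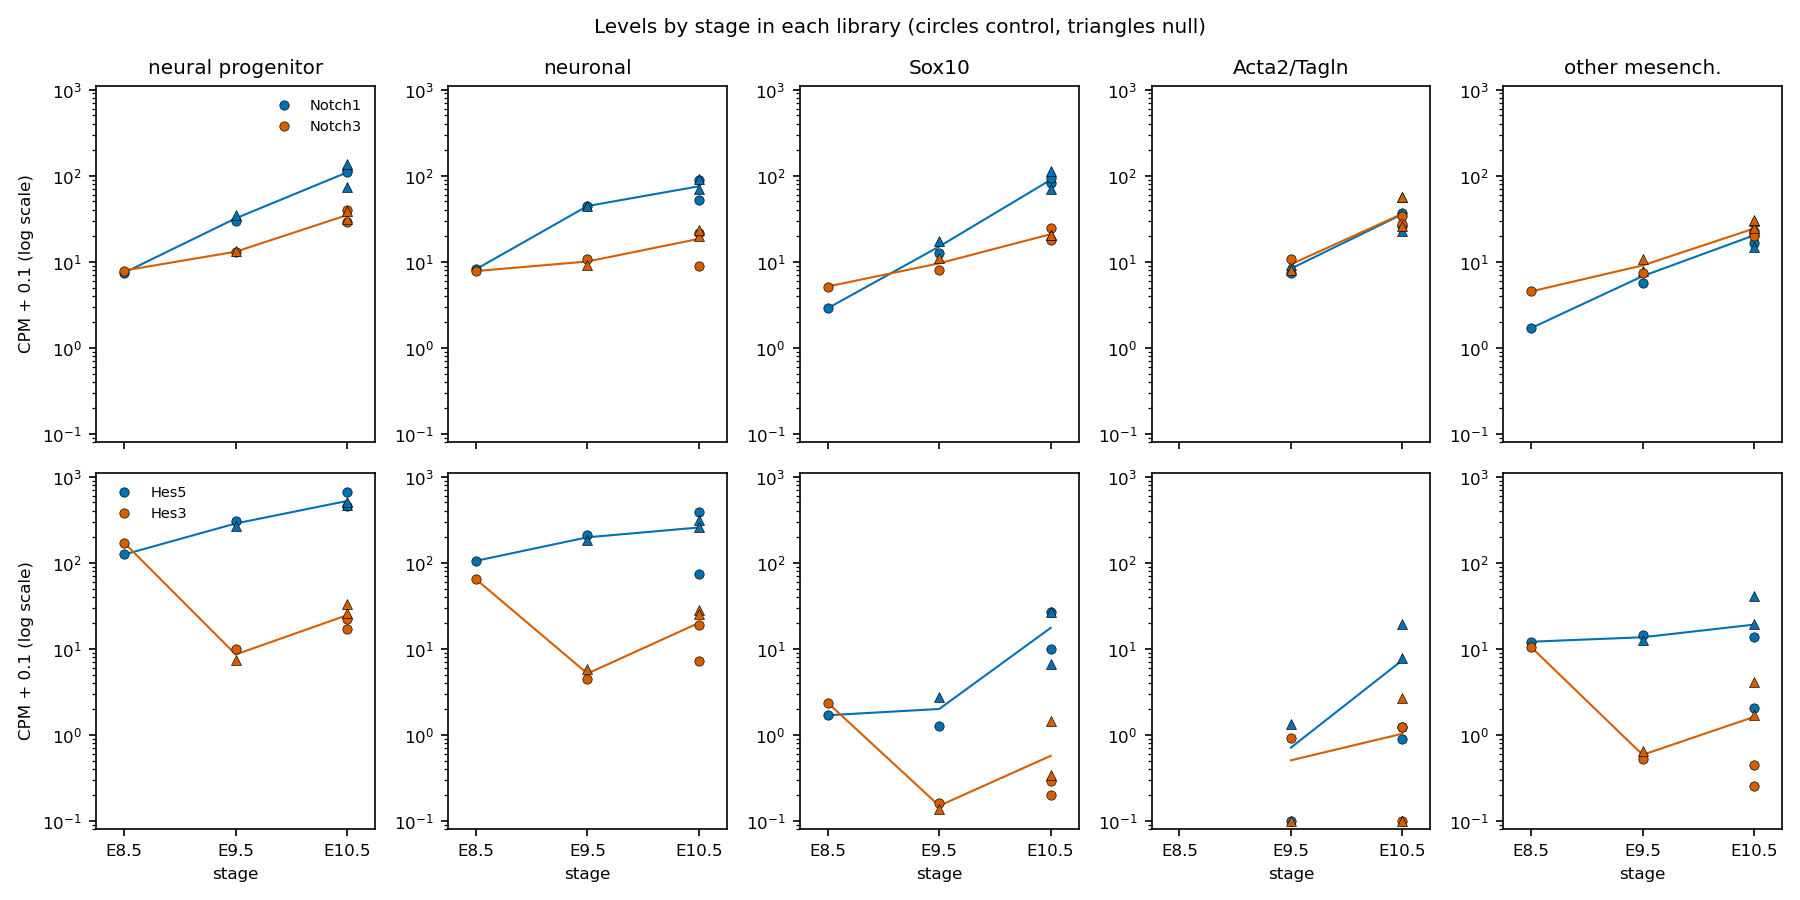
Levels of Notch1 and Notch3 (upper panels) and of Hes5 and Hes3 (lower panels) in CPM plus 0.1 (log scale, vertical axis) by stage (horizontal axis) in the 5 classes; points are libraries, with circles for control and triangles for null, and lines join the means. Both receptors are higher at each later stage in progenitors and mesenchyme, while Hes3 in progenitors is at 169.5 CPM at E8.5 and at 7.23 to 9.70 CPM at E9.5. The E8.5 library had another kit and dissection, which cannot be told apart from the stage.

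The comparison of genotypes at E10.5 set 2 control against 2 libraries labelled null in each class. None of the members tested, 10 in progenitors, neuronal and other mesenchymal cells, 9 in Sox10 and 7 in Acta2/Tagln cells, was called. In neural progenitors 0 of 12840 genes were called (0%; 894 at an unadjusted p under 0.05, 24 by DESeq2), in neuronal cells 0 of 15108 (0%; 882, and 52 by DESeq2), in Sox10 cells 2 (0.0154%), in Acta2/Tagln cells 3 (0.0315%) and in other mesenchymal cells 18 (0.118%). In neural progenitors the log2 differences between null and control lay between -0.34 ± 0.25 (Hes5) and 0.64 ± 0.25 (Dll3), and their median was 0.01. Of the 40 other pathway genes, 28 (Acta2/Tagln) to 40 (neuronal) were tested in a class, and none of these was called. Leaving out a library, which leaves 1 in its group that is then assumed to vary like the others, gave 3 called members in neuronal cells without control replicate 1 (0.693% of all genes called), 2 and 3 in Sox10 cells without null replicate 1 and 2 (4.19% and 6.22%), and 1 in Acta2/Tagln cells without null replicate 2 (2.99%).

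In other mesenchymal cells 5 neural members differed most. Hes3 measured 0.348 and 0.155 CPM in the controls and 1.57 and 3.97 CPM in the libraries labelled null (log2 difference 3.25 ± 0.58, edgeR adjusted p = 0.080), and Nrarp 2.45 and 1.09 against 7.83 and 14.6 CPM (2.47 ± 0.43, adjusted p = 0.080). Dll1 differed by 2.47 ± 0.58, Dll3 by 2.44 ± 0.61 and Hes5 by 1.78 ± 0.73 (adjusted p = 0.14, 0.16 and 0.34). The share of all genes with both null values above both control values is not given, and these 5 were picked by their differences. In each of the 5 both null values were above both control values, and null replicate 2 was the highest. Markers of neural progenitors moved with them: Sox2 in the same cells was 10.5, 5.00, 26.2 and 59.4 CPM, and the progenitor marker list summed to 131, 92.2, 214 and 375 CPM. The neuronal gene Elavl3, at 1.47, 0.776, 1.40 and 12.7 CPM, was high in null replicate 2 alone, and other mesenchymal cells made up 40.4% and 66.0% of the cells in the controls and 30.1% and 10.3% in the libraries labelled null. The part of neural transcripts or cells in this class in the differences was not tested.

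With stricter gates (Twist1 at least 2 and Sox2 at 0) Hes5 in other mesenchymal cells was 2.45 and 0.569 CPM in the controls and 4.04 and 10.0 CPM in the libraries labelled null, and Nrarp was 0.916, 0.600, 2.02 and 5.11 CPM. The levels were lower in all 4 libraries, and the order of the groups was kept. DESeq2 called 4 of the 5 (all but Hes5) among 440 genes (2.88% of those tested), and the fit without a filter on low counts called all 5 among 854 (3.87%). Without control replicate 1, and likewise without null replicate 1, which leaves kit version 3.1 alone, all 5 were called, among 348 (2.20%) and 1690 genes (10.7%). Without null replicate 2, Hes3, Nrarp, Dll1 and Dll3 were called (adjusted p = 0.0017, 0.00040, 0.019 and 0.045) among 1660 genes (10.6%), and without control replicate 2 none was, among 21 (0.135%). With the replicate number as a block, all 5 were called among 561 genes (3.68%; Hes3 3.21, Nrarp 2.51, Dll1 2.48, Hes5 2.23, Dll3 2.19; adjusted p = 0.0036, 0.00088, 0.021, 0.043 and 0.016). With the E9.5 libraries added and stage as a term, none was (adjusted p from 0.54 to 0.62).

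**Figure D5:**
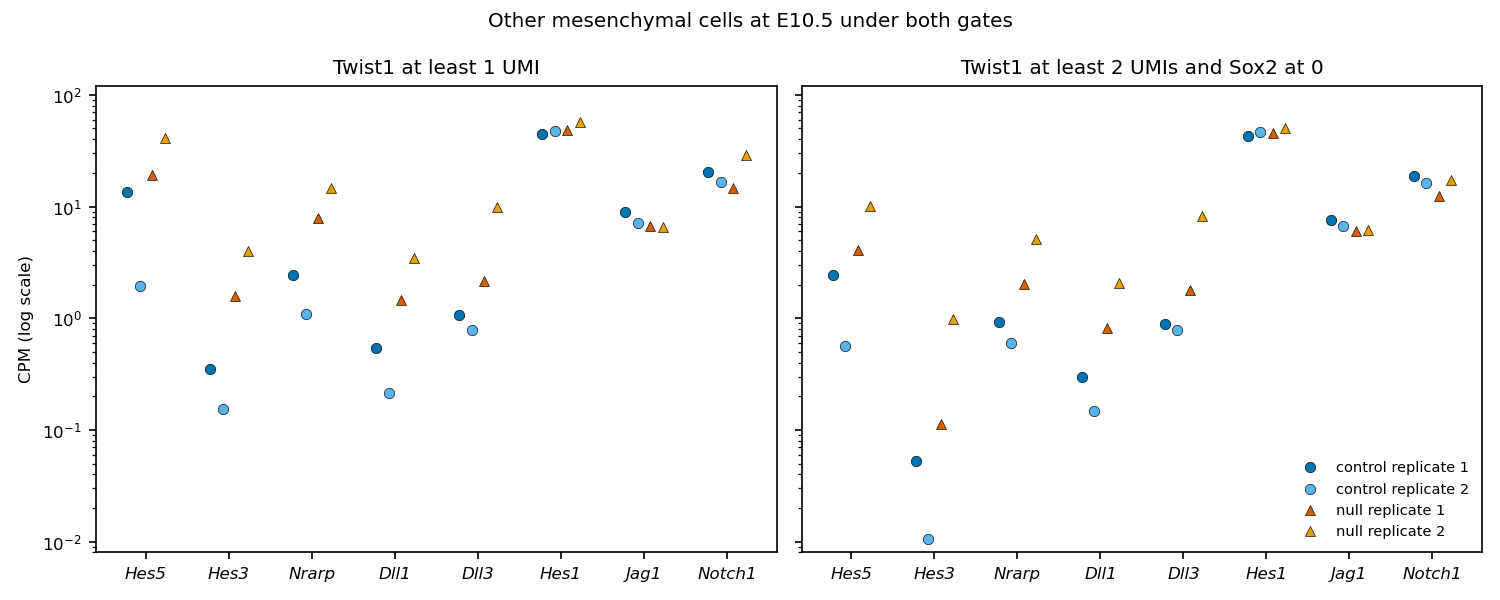
CPM (log scale, vertical axis) of 8 genes (horizontal axis) in other mesenchymal cells of the 4 E10.5 libraries, with the class set by Twist1 at least 1 UMI (left) or by Twist1 at least 2 UMIs and Sox2 at 0 (right); each point is 1 library. Hes5, Hes3, Nrarp and Dll1 are lower under the stricter gate in each library, Dll3 is lower in all but control replicate 2 (0.776 and 0.779 CPM), and these 5 genes stay highest in null replicate 2. Hes1, Jag1 and Notch1 spread less between the libraries under both gates.

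A test of whether the genotype difference itself changed between classes called none of the 10 genes in any of 4 contrasts with other mesenchymal cells (0.0387%, 0.0452%, 0.0387% and 0.0129% of 15498 genes called for progenitors, neuronal, Sox10 and Acta2/Tagln cells). For progenitors Nrarp had -2.21 ± 0.49 (edgeR adjusted p = 0.15), Hes3 -2.68 ± 0.61 (0.16) and Hes5 -2.58 ± 0.69 (0.27). Without null replicate 1, within kit version 3.1, 3 members were called for progenitors and 3 for neuronal cells, where 0.345% and 1.05% of all genes were.

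In Sox10 cells Dll3 measured 5.57 and 4.86 CPM in the controls and 12.7 and 21.6 CPM in the libraries labelled null at E10.5, a log2 difference of 1.68 ± 0.32 (edgeR adjusted p = 0.27). Neuron markers summed to 659 CPM in the Sox10 cells of null replicate 2 and to 220 to 300 CPM in those of the other E10.5 libraries, and their part in the difference was not tested. DESeq2 called it among 57 genes (adjusted p = 0.013), as did the fit without a count filter (1.68, adjusted p = 5.34e-05), the fit with a replicate block (1.68, adjusted p = 0.0015), that without null replicate 1 (2.01, adjusted p = 7.18e-09) and that without null replicate 2 (1.28, adjusted p = 0.0036). In Acta2/Tagln cells Hes5 rested on 2 UMIs in each control and on 24 and 3 UMIs in the libraries labelled null, and it was not called (adjusted p = 0.14). It was called without null replicate 2 (0.0015), without a count filter (0.00011), with gates on thinned cells (0.016) and with the neuronal gate at Twist1 0 (0.043).

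Within other mesenchymal cells of E10.5, 2 splits by position were compared, with the library as a block. Cells with at least 2 UMIs of Dlx5 plus Dlx6, which mark the distal part of the arches, had less Hes5, Nrarp, Dll1 and Jag1 and more Hey1 than cells with none (4 of 9 genes tested lower and 1 higher; 11% and 13.8% of 13682 genes). Cells with Hoxa3 or Hoxb3, markers of the arches behind the second, had more Hes5, Nrarp, Jag1 and Hes1 than cells with Hoxa2 alone (4 of 10 higher and 0 lower; 6.87% and 5.66% of 13543 genes). Without control replicate 1, 2 members were called in each split (8.50% and 5.44% of all genes). The Dlx5/6 cells numbered 1187 and 2070 in the controls and 535 and 23 in the libraries labelled null. Those of null replicate 2 held 545395 UMIs in all, so its values there rest on few UMIs per gene. Hes5 measured 2.37, 0.559, 3.58 and 14.7 CPM in Dlx5/6 cells and 29.3, 3.44, 26.5 and 44.1 CPM in the others, lower in 4 of 4 libraries (log2 difference -2.94 ± 0.21, edgeR adjusted p = 6.45e-05), and Nrarp differed by -2.78 ± 0.18 (3.36e-05). In Hoxa3/Hoxb3 cells Hes5 was 28.1, 5.84, 24.5 and 52.1 CPM against 5.98, 0.679, 13.1 and 13.7 CPM in Hoxa2 cells (1.76 ± 0.25, adjusted p = 0.0019), and Nrarp differed by 1.41 ± 0.21 (0.0026).

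Sox2 moved with both splits, at 24.2, 9.46, 37.0 and 64.4 CPM in cells without Dlx5/6 against 1.07, 0.605, 2.33 and 7.33 CPM with them, and at 18.8, 7.07, 32.9 and 73.2 CPM in Hoxa3/Hoxb3 cells against 3.22, 2.08, 13.9 and 21.6 CPM in Hoxa2 cells. The stricter gates remove cells with Sox2 from this class and let in cells with 3 to 9 Tubb3 plus Stmn2 UMIs. Under them the Hes5 differences were -0.05 (edgeR adjusted p = 0.89) for Dlx5/6 and -0.18 (0.48) for Hox, and those of Nrarp -0.66 (0.19) and 0.30 (0.45). Jag1 measured 5.75, 4.10, 5.03 and 5.50 CPM in Dlx5/6 cells, the last from 23 cells, and 12.7, 9.36, 7.12 and 6.79 CPM in the others. The values did not overlap. The log2 difference was -0.85 ± 0.14 (edgeR adjusted p = 0.0039). It was not called without control replicate 1 (-0.73, adjusted p = 0.061) or with the E9.5 libraries added (-0.44, adjusted p = 0.12). Dll1 (-1.41 ± 0.35, adjusted p = 0.019) was not called without control replicate 1 (0.20) or 2 (0.079) or with stricter gates (0.19). Hey1 (0.51 ± 0.15, adjusted p = 0.035) was not called without control replicate 1 (0.32) or 2 (0.12), with DESeq2 (0.11), stricter gates (0.089), Sox10 at 1 UMI (0.057) or gates on thinned cells (-0.0046, adjusted p = 0.99). For the Hox split, Hes1 (0.33 ± 0.06, adjusted p = 0.0063) was not called without control replicate 1 (0.066), and Jag1 (0.59 ± 0.14, adjusted p = 0.023) without control replicate 1 (0.16) or 2 (0.14), with DESeq2 (0.064), the other cell filter (0.060) or gates on thinned cells (0.19). With the E9.5 libraries added, the Hox differences of Nrarp (0.062), Hes1 (0.12) and Jag1 (0.30) were not called.

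Toward smooth muscle, cells of the Acta2/Tagln and other mesenchymal classes were binned by Acta2 plus Tagln UMIs after thinning. At E10.5 the median Hey1 level was 12.9, 26.6, 37.5 and 45.1 CPM in the bins of 0, 1 to 2, 3 to 9 and at least 10 UMIs, and that of Jag1 was 7.15, 17.2, 29.6 and 32.7 CPM. Both medians were higher in each further bin, although in control replicate 2 Hey1 was 10.2 CPM in the first bin and 7.89 CPM in the next, while the median of Notch3 was 25.7, 25.6, 26.0 and 22.5 CPM. Hes1 measured 49.9, 64.5, 100.0 and 82.7 CPM. Cnn1, which encodes a contractile protein of smooth muscle, went from 0.244 to 138 CPM. The bins held 4, 4, 3 and 2 libraries with at least 20 cells. From the bin of 3 to 9 UMIs on, a change of bin and a change of libraries therefore cannot be told apart in the medians. The libraries ranged from 6.58 to 37.8 CPM for Jag1 in the bin of 1 to 2 UMIs, and no test was made. Acta2/Tagln cells also carried the heart muscle markers given above, and the part of heart cells in these levels was not tested.

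The genes whose pattern was most like that of each member were read from the Pearson correlation of log2(CPM + 1) over 35 values (7 libraries by 5 classes, which share library and depth; the 5 Acta2/Tagln cells of E8.5 give 1 of the values) among 9691 genes, as a description. For Hes5 they were Sox1 (r = 0.96), Rfx4 (0.95) and Pax6 (0.94), all known from neural progenitors. For Dll3 they were Plk3 (0.97), Nfasc (0.96) and Btbd17 (0.95), for Dll1 Mfng, Gm27032 and Mkrn1 (0.93 each), and for Hes3 Sox21 (0.96), Nuak2 (0.89) and Rmst (0.87). Notch1 was closest to Megf9 (0.95), Ddhd1 (0.94) and Map1a (0.94), Notch3 to Aldh5a1 (0.95), Galnt2 (0.95) and Lpin2 (0.94), and Nrarp to Cacng4 (0.94), Kif1a (0.94) and Tox2 (0.92). For Hey1 they were Fn1 (0.90), Smad6 (0.88) and Atp2b1 (0.87). The closest genes of Jag1 (Sorbs2, 0.78) and Hes1 (Tmem248, 0.79) were less alike.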

How the data were processed

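Droplet libraries were aligned by the authors to mm10 with Cell Ranger 6.0.1 (submitters' processing notes), and the deposited values are raw UMI counts per gene and cell for barcodes called as cells. A cell was kept if 1000 or more genes were detected in it and mitochondrial UMIs made up no more than 10%, and the highest Scrublet scores were removed, 0.8% of barcodes per 1000 barcodes. Cells were gated as given above, and counts were summed per library and class. These sums were tested with edgeR 4.0.16 (R 4.3.3, TMM, filterByExpr, quasi-likelihood, Benjamini-Hochberg under 0.05 over all genes tested), checked on simulated data. DESeq2 1.42.0, its size factors in edgeR, no count filter, another cell filter (200 or more genes, mitochondrial share up to 5%), doublets kept, stricter, looser and thinned gates, other sets of libraries, a replicate block and leaving out each library were alternatives; the neuronal gate with Twist1 at 0 was added after seeing the data. Intervals behind the levels are exact 95% Poisson and cover counting error only, as do shares (Clopper-Pearson). Libraries are pools of embryos, and p-values measure the spread between libraries. In droplet data free RNA gives some UMIs in cells that do not express a gene. Gene positions are from GENCODE vM21. All 10 members are named; of the 40 other pathway genes, those called with an absolute log2 fold change of at least 1 between classes, at most 10 per comparison by size, and any called between genotypes; and the 3 genes most like each member with a mean of at least 5 CPM. The members, lists, gates and tests were chosen with earlier results of these data known.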

Additional observations from a re-analysis of the deposited data

Results flagged for a closer look

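The E8.5 library, a single library with another kit and dissection that was left out of the comparisons of stages, classes and genotypes (not of the co-detection test or of the alternative with all 7 libraries), held Hes3 levels above those of the later control libraries in 4 classes: 169.5 CPM in neural progenitors, 63.9 CPM in neuronal cells, 10.3 CPM in other mesenchymal cells and 2.25 CPM in Sox10 cells. In neural progenitors its 95% counting interval ran from 165 to 175 CPM, and 41.9% of cells thinned to 5000 UMIs held a Hes3 UMI, against 3.19% to 12% in the 6 later libraries. Under the stricter gates Hes3 at E8.5 was 143 CPM in progenitors, 1.53 CPM in Sox10 cells and 0.964 CPM in other mesenchymal cells, still above the later controls. In other mesenchymal cells null replicate 2 of E10.5 was at 0.991 CPM. In neuronal cells Hes3 at E8.5 was then 4.99 CPM (12 UMIs), below the 5.68 CPM of control replicate 1 of E10.5. The stage, the kit and the dissection cannot be told apart in the E8.5 library.

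Hey2, one of the other pathway genes, was the 1 gene of that list whose genotype difference at E10.5 differed between classes by a test of that difference (-2.93 ± 0.42 on the log2 scale between Sox10 and other mesenchymal cells, edgeR adjusted p = 0.038). In Sox10 cells it measured 23.5 and 13.4 CPM in the controls and 7.65 and 14.0 CPM in the libraries labelled null, and in other mesenchymal cells 0.679 and 0.631 against 3.56 and 2.65 CPM. The mesenchymal groups did not overlap and the Sox10 groups did. The call was lost with the other cell filter (adjusted p = 0.053), stricter gates (0.076), gates on thinned cells (0.22), the neuronal gate at Twist1 0 (0.090), and without control replicate 1 (0.47), control replicate 2 (0.62) or null replicate 1 (0.12), with log2 differences from -3.30 to -2.23 in these fits.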

How the results depend on the processing

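Of 578 recomputed values for the 59 log2 fold changes that were called, apart from the fits that left out a single library, 527 kept their direction and their side of the threshold, 47 were no longer called and 4 changed sign; of 266 values with a single library left out, 210 kept both and 56 were no longer called. The signs that changed were Dll3 between Sox10 and other mesenchymal cells (-0.049 with the neuronal gate at Twist1 0), Hes5 by stage in Acta2/Tagln cells (-0.38, stricter gates), Hes5 in the Hox split (-0.18, stricter gates) and Hey1 in the Dlx5/6 split (-0.0046, gates on thinned cells). Except for the gates, which change the cells compared, the cause was not tested.

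Beside each number of members called, the share of all genes tested that the same fit called is given, and the ranges are those with a single library left out. For the genotype comparison 0 members in each class became 1 in neuronal cells without a count filter (1.20%; 0 to 3, 0.103% to 0.693%), 1 in Sox10 cells with DESeq2 (0.439%), without a count filter (1.44%) and with the replicate block (2.44%; 0 to 3, 0.238% to 6.22%), 1 in Acta2/Tagln cells without a count filter (1.27%), with gates on thinned cells (0.881%) and with the neuronal gate at Twist1 0 (0.0687%; 0 to 1, 0.825% to 2.99%), and in other mesenchymal cells 4 with DESeq2 (2.88%), 5 without a count filter (3.87%) and 5 with the replicate block (3.68%; 0 to 5, 0.135% to 10.7%). For its difference between classes it became 1 with DESeq2 (0.374%), 3 without a count filter (0.722%) and 2 with gates on thinned cells (0.353%) in progenitors (0 to 3, 0% to 0.345%), 2 without a count filter (0.935%) and 1 with the neuronal gate at Twist1 0 (0.892%) in neuronal cells (0 to 3, 0% to 1.38%), and 1 with DESeq2 (0.490%) and 1 without a count filter (0.347%) in Sox10 cells. Between neuronal cells and progenitors 7 (46.9%) became 4 with the neuronal gate at Twist1 0 (46.7%) and 4 with all 7 libraries (30.7%; 4 to 7, 32.5% to 41.2%). By stage, 3 in progenitors (7.73%) ranged from 0 to 4 (0.365% to 14.6%). In neuronal cells 2 (12.4%) became 1 with stricter gates (21.6%), with Sox10 at 1 UMI (9.53%) and in controls alone (4.21%; 0 to 2, 0% to 17.8%), in Sox10 cells 6 (24.7%) became 3 with gates on thinned cells (19.1%; 3 to 8, 4.10% to 35.1%), in Acta2/Tagln cells 4 (10.9%) became 2 with stricter gates (13.6%), 2 with gates on thinned cells (8.29%) and 1 in controls alone (12.7%; 0 to 3, 0.0469% to 13.7%), and in other mesenchymal cells 2 (26.8%) became 6 in controls alone (33.1%; 0 to 4, 2.90% to 37.6%). In the Dlx5/6 split 5 (24.8%) became 3 with stricter gates (22.1%; 2 to 7, 8.50% to 40.6%), and in the Hox split 4 (12.5%) became 7 with doublets kept (15%), 2 with stricter gates (11%) and 2 with the E9.5 libraries added (8.86%; 2 to 6, 5.44% to 12.5%). Of the 6 pairs called for co-detection, 3 were called with stricter gates.

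The replicate numbers of the labels give no shared litter or day. Deviations of same-numbered libraries correlated across genes at 0.30, 0.36, 0.23, 0.05 and 0.18 in the 5 classes, and with the replicate block the genes called between genotypes went from 0 to 85 in progenitors, 0 to 22 in neuronal, 2 to 316 in Sox10, 3 to 27 in Acta2/Tagln and 18 to 561 in other mesenchymal cells. With no count filter they were 139, 266, 284, 212 and 854. Depth limits the Acta2/Tagln class most, where Dll1, Dll3 and Hes3 rest on 0 to 4 UMIs per library at E10.5.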
